A study of Homo sapiens with 10 samples.

Results

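The genes described here are 34 genes of cholesterol and fatty acid synthesis, of which 31 had a probe set with exactly 1 gene symbol among 19775 genes measured. Each gene was represented by its probe set of highest mean intensity. They fall into a sterol arm (17 genes measured), a set of regulators with a sterol carrier (6 genes) and a fatty acid arm (8 genes). FDFT1, CYP51A1 and FADS1 were not analysed here, and FADS2, which read 9.9 to 98.4 on the 10 arrays, fell below the intensity filter, so 30 members were tested: 17, 6 and 7.

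Expression was measured in human gastric cancer cells on 10 single-colour arrays from biotin-labelled total RNA. The side population and the non-side population had 4 arrays each, lettered a to d, and the unsorted cells had 2, lettered a and b. By title, side and non-side arrays of the same letter share a replicate group name (SPa to SPd). The unsorted arrays have other names (UCPa and UCPb). A side population is the minor fraction that pumps out a DNA-binding Hoechst dye through ATP-binding cassette transporters, and the dye-retaining cells collected beside it are the non-side population. AGS and MKN 45 are established gastric carcinoma lines. The origin label of every array names both lines. The source label names AGS for 8 arrays and no line for side population replicates a and b. AGS was grown in RPMI medium with 10% and MKN 45 with 20% fetal bovine serum, and the labels give no drug, transgene or other treatment for any group. They also do not say whether the unsorted cells went through staining or sorting, or whether each replicate was its own culture. The p-values therefore reflect only how these samples vary, and that variation may be technical.

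Cells make cholesterol from acetyl-CoA through mevalonate, isoprenoids and squalene, and fatty acids from acetyl-CoA through malonyl-CoA. SREBP transcription factors drive both routes: SREBP-2, from SREBF2, acts mainly on sterol genes, and SREBP-1, from SREBF1, mainly on fatty acid genes. When sterols are abundant, INSIG proteins hold the SREBP escort SCAP in the endoplasmic reticulum. When sterols are scarce, SCAP carries SREBP to the Golgi, where the proteases encoded by MBTPS1 and MBTPS2 release the active factor. Proliferating cells, tumour cells among them, use both routes for membrane lipids.

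Intensities are on the deposited linear scale, on which every array had the same trimmed mean of about 500.1. Fold changes are differences of mean log2 values, ± the standard error of limma's fit over all 10 arrays, and a gene was called at a Benjamini-Hochberg adjusted p under 0.05 over the 9888 genes tested. On side population replicate a the ratio of 3' to 5' signal was 3.34 for the actin control, against 0.987 to 1.28 on the other 9 arrays. The 5' control probe set of 18S ribosomal RNA read 851.2 on side population replicate d and 563 on non-side population replicate c, 22182.4 to 33704 on the other 6 sorted arrays, and 274.6 and 828.3 on the unsorted arrays. The 6 epithelial markers examined (EPCAM, KRT8, KRT18, KRT19, CLDN4 and ELF3) lay above the array median on all 10 arrays, and 0 of 6 were called in any contrast. Their summed intensity was 91386.5 to 116584.8 in the side population, 80084.9 to 137747.2 in the non-side population and 114541.8 to 123454.9 in unsorted cells. In each sorted group 5 of 6 had negative log2 fold changes against unsorted cells. ELF3 was lower on every sorted array, at 1975.5 to 3990.9 in the side population and 2788.9 to 2901.4 in the non-side population, against 5232.3 and 4283.8 in unsorted cells. The 4 blood cell markers measured summed to 228.9 to 375.2, 222.9 to 386.3 and 203.7 to 248.0 in the same order of groups. The 6 fibroblast and endothelial markers summed to 1304.3 to 2234.6, 1323.3 to 1748.4 and 1523.3 to 2245.4. Most of that was COL1A1, which read 1017.8 to 2010.4 over the 10 arrays.

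In the sterol arm 6 of 17 genes fell in the side population against unsorted cells and 6 of 17 in the non-side population, and 0 rose in either. The 6 genes were HMGCS1, MVD, SQLE, LSS, NSDHL and DHCR7 in both contrasts, which share the 2 unsorted arrays. Over all genes tested, 0.556% were called lower and 1.89% higher in the side population, and 1.2% lower and 2.46% higher in the non-side population. The median log2 fold change of the arm was -0.95 in the side population and -0.88 in the non-side population, beside medians of 0.04 and -0.01 over all genes tested. In bulk RNA, fewer expressing cells and less RNA per cell cannot be told apart.

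**Figure D1:**
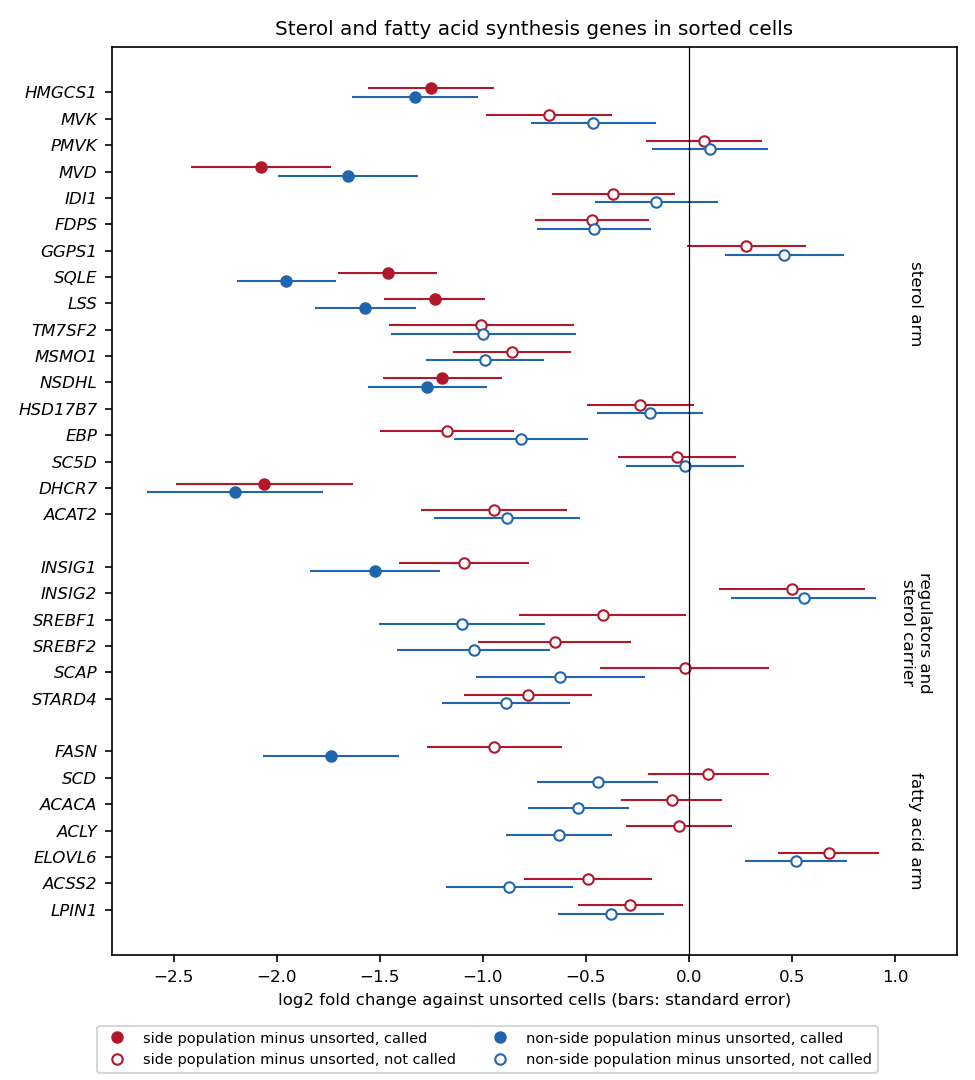
Log2 fold change against unsorted cells (x axis) of the 30 tested genes (y axis), with bars for the standard error of the limma fit, for the side population (red) and the non-side population (blue). Filled points were called, and 15 of 17 sterol arm genes lie left of 0 in each contrast.

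The isoprenoid steps come first in the route. HMGCS1, which condenses acetyl-CoA with acetoacetyl-CoA to HMG-CoA, read 1929.8, 1631.4, 1130.6 and 1316.6 in the side population and 1599.5, 1603.2, 891.3 and 1655.3 in the non-side population, against 3201.1 and 3862.9 in unsorted cells. All 8 sorted arrays lay below both unsorted arrays. The log2 fold change was -1.25 ± 0.30 in the side population (limma adjusted p = 0.0456) and -1.33 ± 0.30 in the non-side population (limma adjusted p = 0.0282).

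MVD, which decarboxylates mevalonate diphosphate to isopentenyl diphosphate, read 153.3, 132.2, 125.5 and 245.1 in the side population and 312.8, 204.8, 185.0 and 177.6 in the non-side population, against 754.3 and 626.0 in unsorted cells. The highest sorted array stood below the lower unsorted one by a wide margin. Its log2 fold change was -2.08 ± 0.34 in the side population (limma adjusted p = 0.00825) and -1.65 ± 0.34 in the non-side population (limma adjusted p = 0.0172).

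The other isoprenoid genes did not pass in either contrast. MVK, the kinase that phosphorylates mevalonate first, read 377.6 to 801.4 in the side population and 681.4 to 867.1 in the non-side population, against 964.9 and 1100.1 in unsorted cells. FDPS, the farnesyl diphosphate synthase, read 4811.4 to 6738.0 and 3827.6 to 7149.2, against 7791.2 and 8744.5. For both genes every sorted array was below both unsorted arrays, at log2 fold changes of -0.68 ± 0.30 and -0.46 ± 0.30 for MVK and -0.47 ± 0.28 and -0.46 ± 0.28 for FDPS. Dimmer MVK probe sets fell further, at -2.28 and -1.55 (mean intensity 204.8) and at -1.53 and -1.17 (mean intensity 192.3). PMVK, the kinase after MVK, had log2 fold changes of 0.07 and 0.10, and IDI1, the isomerase of isopentenyl diphosphate, of -0.37 and -0.16. The second IDI1 probe set had -0.58 and -0.42. Dimmer ones had the opposite sign, at 0.31 and 0.15 (mean intensity 372.2) and at 1.17 and 1.39 (mean intensity 147.5). GGPS1, which makes geranylgeranyl diphosphate for protein prenylation and not for sterols, had 0.28 and 0.46. ACAT2, which supplies acetoacetyl-CoA, read 2006.1 to 2299.5 in the side population and 1199.7 to 3459.6 in the non-side population, against 3888.7 and 4344.7 in unsorted cells, and did not pass (limma adjusted p = 0.170 and 0.185).

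From squalene to cholesterol, 9 of 9 measured genes had negative log2 fold changes in both contrasts, and 4 were called in each. The median was -1.17 in the side population and -0.998 in the non-side population, beside -0.47 and -0.46 for the 7 isoprenoid genes. SQLE, the squalene epoxidase, read 2854.8, 3375.1, 2636.5 and 3498.2 in the side population and 2037.6, 1786.5, 2384.2 and 2605.1 in the non-side population, against 8941.4 and 8012.2 in unsorted cells. The sorted groups did not overlap the unsorted one. Its log2 fold change was -1.46 ± 0.24 in the side population (limma adjusted p = 0.00825) and -1.95 ± 0.24 in the non-side population (limma adjusted p = 0.00114).

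LSS closes the sterol ring to form lanosterol. It read 3341.5, 2066.5, 2195.4 and 2435.5 in the side population and 2132.5, 1872.6, 1955.7 and 1853.9 in the non-side population, against 6229.0 and 5409.3 in unsorted cells. The log2 fold change was -1.23 ± 0.25 in the side population (limma adjusted p = 0.0210) and -1.57 ± 0.25 in the non-side population (limma adjusted p = 0.00403).

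NSDHL takes part in removing the methyl groups at carbon 4 of the sterol. It read 764.4, 707.2, 1008.4 and 729.8 in the side population and 928.3, 809.5, 492.9 and 874.2 in the non-side population, against 1706.4 and 1961.6 in unsorted cells. The log2 fold change was -1.20 ± 0.29 (limma adjusted p = 0.0444) in the side population and -1.27 ± 0.29 (limma adjusted p = 0.0269) in the non-side population.

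DHCR7 reduces 7-dehydrocholesterol to cholesterol, the last step. It read 1030.9, 945.9, 715.3 and 1657.8 in the side population and 1363.0, 409.6, 1171.1 and 1183.5 in the non-side population, against 4477.9 and 4214.2 in unsorted cells. Every sorted array was far below both unsorted arrays, and non-side population replicate b was the lowest. The log2 fold change was -2.06 ± 0.43 in the side population (limma adjusted p = 0.0244) and -2.20 ± 0.43 in the non-side population (limma adjusted p = 0.0137).

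The remaining genes of this stretch did not pass. MSMO1, the sterol C4 methyl oxidase, read 4508.2 to 6238.4 in the side population and 3114.9 to 6752.8 in the non-side population, against 8759.1 and 10206.0 in unsorted cells. EBP, the sterol isomerase, read 2319.1 to 4912.1 and 3261.5 to 5120.8, against 7303.0 and 8544.2. These 2 genes had non-overlapping sorted and unsorted arrays, with log2 fold changes of -0.86 ± 0.29 and -0.99 ± 0.29 for MSMO1 and of -1.17 ± 0.32 and -0.82 ± 0.32 for EBP. TM7SF2, a sterol C14 reductase, had -1.01 ± 0.45 and -0.998 ± 0.45, with the unsorted arrays overlapped by the side population and above all non-side population arrays. HSD17B7, a sterol ketoreductase, had -0.24 and -0.19, and SC5D, the C5 desaturase, -0.06 and -0.02.

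Across the sterol arm, 11 of 17 genes lay lower on all 8 sorted arrays than on both unsorted arrays, beside 9.54% of all genes tested. The mean log2 value of the arm, taken relative to the unsorted mean, was -0.84, -0.96, -0.93 and -0.73 on side population replicates a to d and -0.58, -0.83, -1.19 and -0.79 on non-side population replicates a to d. The unsorted arrays were 0.01 above and below their own mean. On the sorted arrays with low 18S signal, as in unsorted cells, 14 of 17 genes were below both unsorted arrays in side population replicate d and 17 of 17 in non-side population replicate c. On the other 6 sorted arrays 12 to 15 of 17 were. The share of all genes below both unsorted arrays on a single array was not computed, so these counts have no background beside them. The part of the 18S signal in the other values was not tested. Without side population replicate a, the array of high 3' to 5' ratio, 3 of the 6 side population calls held (MVD, SQLE and LSS), and these 3 held without any other sorted array. The side population call of HMGCS1 was lost without any 1 side population array and without non-side population replicate a or d, that of NSDHL without side population replicate a, b or d or non-side population replicate a or d, and that of DHCR7 without side population replicate a, b or c. INSIG1 was called in the side population without its replicate b. The 8 non-side population calls held without any 1 sorted array. HMGCS1 and NSDHL were not called in either population after quantile normalization (limma adjusted p = 0.0535 to 0.0869), in the side population without a filter, or in the non-side population with only the compared groups. DHCR7 was not called in the side population with the mean of its probe sets (limma adjusted p = 0.0890). Without unsorted replicate a or b, 0 members were called in the side population and 1 (SQLE) in the non-side population by limma, and over all genes 10 and 17 were called in the side population, with 741 and 928 at an unadjusted p under 0.05.

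**Figure D2:**
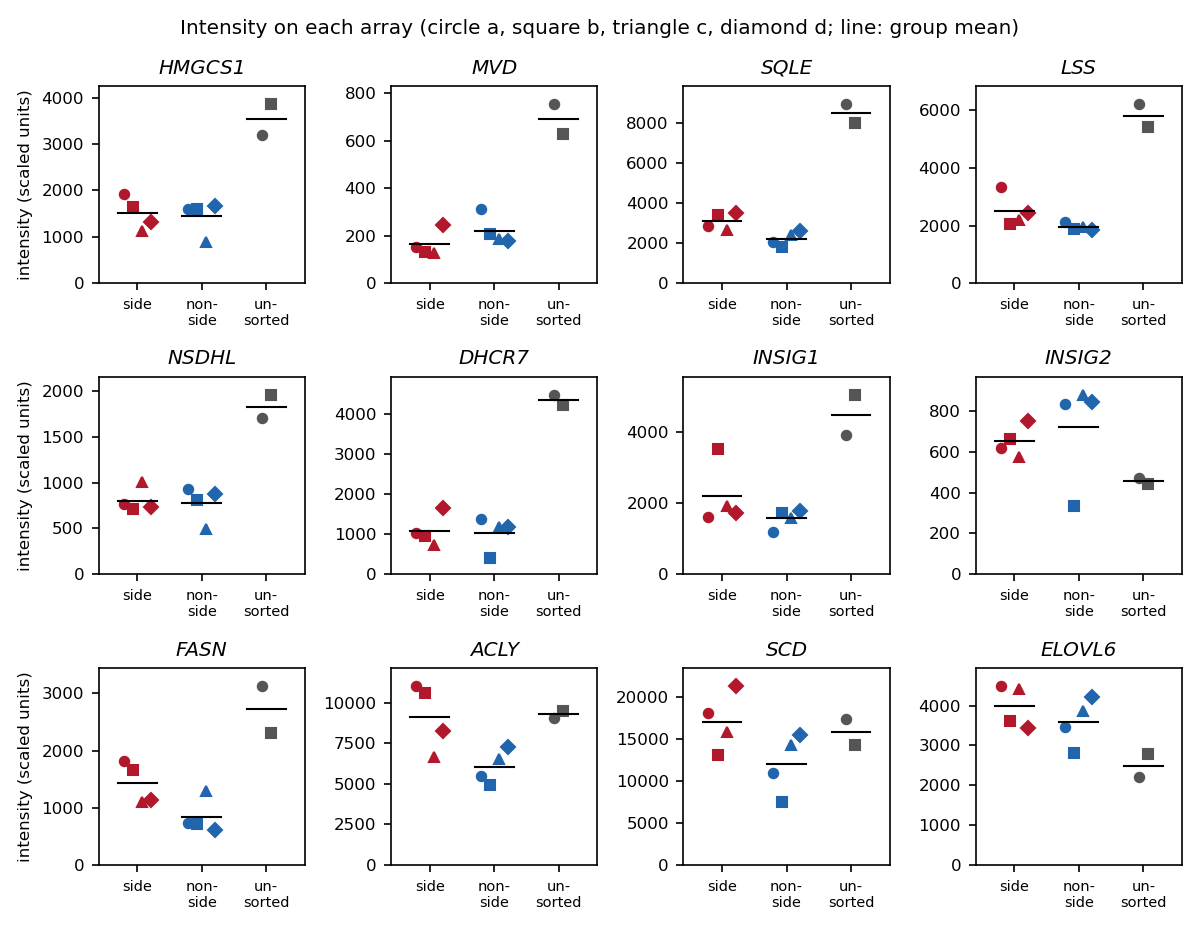
Intensity on the deposited linear scale (y axis, from 0) on each array of the side population (red), the non-side population (blue) and unsorted cells (grey) for 12 genes, with a line at each group mean and a symbol for each replicate letter. The 6 called sterol genes and INSIG1 lie below the unsorted arrays on all 8 sorted arrays, while SCD and the side population arrays of ACLY overlap the unsorted ones.

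Other probe sets of the called sterol genes also read lower in sorted cells, some by more. The second probe set of HMGCS1 had log2 fold changes of -2.75 ± 0.40 in the side population and -2.03 ± 0.40 in the non-side population, although its unsorted arrays were far apart, at 1304.8 and 3794.1. Of the other SQLE probe sets, those above an intensity of 200 had -2.51 and -2.08 in the side population and -2.70 and -2.15 in the non-side population. The 2 other LSS probe sets had -2.84 ± 0.47 and -2.67 ± 0.47 (mean intensity 322.7) and -1.19 ± 0.58 and -1.13 ± 0.58 (mean intensity 109.9), and that of DHCR7 had -0.89 ± 0.38 and -1.70 ± 0.38. EBP had probe sets of both signs: its second was at -0.84 and -1.02 and a dimmer one at 0.30 and 0.88.

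Promoter windows are given for 3 sterol genes that fell together (MVD, NSDHL and 1 of 2 windows of DHCR7), for SREBF2, whose window alone among the members held the sterol element searched, and for ELOVL6, which did not fall. They span 250 bases before to 50 after the start annotated by RefSeq on GRCh38.p14, read 5′ to 3′ on the gene's strand. Capitals mark CCAAT on either strand (ATTGG on the reverse) and, in SREBF2, the sterol element TCACNCCAC. The windows are MVD at chr16:88663042-88663341, minus strand, NSDHL at chrX:152830813-152831112, plus strand, DHCR7 at chr11:71448344-71448643, minus strand, SREBF2 at chr22:41832855-41833154, plus strand, and ELOVL6 at chr4:110198566-110198865, minus strand.
MVD: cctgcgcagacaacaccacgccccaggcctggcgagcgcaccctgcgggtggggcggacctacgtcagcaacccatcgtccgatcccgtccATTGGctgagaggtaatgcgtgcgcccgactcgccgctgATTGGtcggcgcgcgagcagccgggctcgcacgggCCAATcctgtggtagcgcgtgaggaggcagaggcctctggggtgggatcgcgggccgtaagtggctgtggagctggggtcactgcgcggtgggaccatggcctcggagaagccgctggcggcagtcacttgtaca
NSDHL: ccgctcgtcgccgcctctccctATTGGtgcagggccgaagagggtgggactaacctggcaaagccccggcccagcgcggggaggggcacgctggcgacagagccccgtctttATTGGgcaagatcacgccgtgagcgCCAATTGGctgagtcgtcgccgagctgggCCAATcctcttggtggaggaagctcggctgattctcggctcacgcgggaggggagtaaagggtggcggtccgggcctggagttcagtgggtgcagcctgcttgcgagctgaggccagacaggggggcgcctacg
DHCR7: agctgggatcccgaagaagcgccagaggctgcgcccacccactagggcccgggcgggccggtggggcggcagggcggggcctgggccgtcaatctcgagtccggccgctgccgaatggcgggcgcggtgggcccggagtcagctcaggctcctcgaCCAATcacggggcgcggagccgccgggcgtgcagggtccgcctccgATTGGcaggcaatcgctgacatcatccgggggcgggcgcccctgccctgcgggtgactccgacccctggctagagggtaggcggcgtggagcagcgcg
SREBF2: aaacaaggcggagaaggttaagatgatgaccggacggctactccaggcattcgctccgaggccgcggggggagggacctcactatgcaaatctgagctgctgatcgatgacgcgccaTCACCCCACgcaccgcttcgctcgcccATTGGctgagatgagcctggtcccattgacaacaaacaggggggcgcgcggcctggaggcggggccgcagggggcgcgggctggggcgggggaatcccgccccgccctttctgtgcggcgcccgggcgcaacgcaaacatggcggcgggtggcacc
ELOVL6: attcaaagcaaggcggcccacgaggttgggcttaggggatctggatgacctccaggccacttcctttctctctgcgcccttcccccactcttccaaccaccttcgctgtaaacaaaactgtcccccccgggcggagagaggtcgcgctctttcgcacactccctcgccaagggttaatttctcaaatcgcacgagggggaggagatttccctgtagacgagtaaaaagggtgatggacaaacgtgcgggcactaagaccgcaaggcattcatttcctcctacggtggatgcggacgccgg
CCAAT, the motif bound by NF-Y, which acts beside SREBP at sterol promoters, was found 3 times in the MVD window, 5 times in that of NSDHL and 2 times in the DHCR7 window shown. A second DHCR7 window, at chr11:71448994-71449293, held 0 CCAAT and 0 GC boxes.

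Windows were listed for 30 of the 34 genes, without FDFT1, SQLE, ACAT2 and FASN, of which SQLE and FASN were called. Windows on chromosome 8 were left out of the search and of every count here. CCAAT was present for 14 of 16 sterol arm genes, 3 of 6 regulators and 5 of 8 fatty acid arm genes, against 42.1% of 15843 protein-coding genes with any window. Counted by window, it was in 16 of 23 for the sterol arm (69.6%) and in 34.6% of all 35116 windows. The element TCACNCCAC, searched on both strands, was in 1 of 45 member windows (SREBF2, -133 from the start) and in 1.13% of all windows, and no match says only that these letters are not in the window. GGGCGG, the GC box bound by Sp1, was in the windows of 29 of 30 members and of 64.3% of protein-coding genes. A CCAAT match on the reverse strand can overlap a GC box match by its final bases. Some genes that were not called carried CCAAT as well. MVK had 5 copies, MSMO1 had 4, FDPS and EBP had 3 each, IDI1 had 3 in a window and GGPS1 had 1, while PMVK had 0. In the fatty acid arm, SCD had 2, each ACLY window had 2 and ELOVL6 had 0. Among the called genes, LSS had 1 copy and the windows of HMGCS1 had 0 and 2.

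Of the 6 regulators, INSIG1 fell in the non-side population and no other call was made. INSIG1, itself an SREBP target that retains SCAP, read 1612.6, 3519.4, 1925.5 and 1734.6 in the side population and 1192.8, 1724.2, 1566.8 and 1781.4 in the non-side population, against 3934.6 and 5052.2 in unsorted cells. Side population replicate b was close to the lower unsorted array. The log2 fold change was -1.09 ± 0.31 in the side population, which did not pass (limma adjusted p = 0.0804), and -1.52 ± 0.31 in the non-side population (limma adjusted p = 0.0174). The second INSIG1 probe set had -1.02 ± 0.36 and -1.69 ± 0.36. On it side population replicate b read 2887.9, against 3209.6 and 2919.7 in unsorted cells. The dimmest INSIG1 probe set had -2.35 ± 0.30 and -2.30 ± 0.30.

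INSIG2, which shares the retention function, read 620.2, 664.0, 572.3 and 750.0 in the side population and 836.9, 332.4, 879.5 and 846.5 in the non-side population, against 471.2 and 444.1 in unsorted cells. Of the 8 sorted arrays, 7 were above both unsorted arrays and non-side population replicate b was below them. The log2 fold changes were 0.50 ± 0.35 and 0.56 ± 0.35, and neither passed (limma adjusted p = 0.512 and 0.418).

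The transcription factor genes and their escort did not pass in either contrast. SREBF1 read 1314.7, 617.8, 628.3 and 1124.4 in the side population and 468.8, 364.8, 972.6 and 511.3 in the non-side population, against 1458.0 and 932.9 in unsorted cells. SREBF2 read 636.4, 292.8, 320.0 and 733.7 in the side population and 366.8, 266.0, 391.6 and 380.9 in the non-side population, against 833.6 and 627.4. Log2 fold changes were -0.42 ± 0.40 and -1.10 ± 0.40 for SREBF1 and -0.65 ± 0.37 and -1.04 ± 0.37 for SREBF2. A dimmer SREBF1 probe set (mean intensity 97) had the opposite sign, at 1.35 and 0.71. Other SREBF2 probe sets had -0.69 and -0.43 (mean intensity 478.7) and 0.11 and -0.21 (mean intensity 163.1). SCAP had -0.02 ± 0.41 and -0.62 ± 0.41. STARD4, a cytosolic sterol carrier, read 223.3 to 376.0 in the side population and 200.8 to 360.5 in the non-side population, against 443.9 and 541.4 in unsorted cells, with -0.78 ± 0.31 and -0.89 ± 0.31. INSIG1 and STARD4 were the 2 of 6 regulators below both unsorted arrays on all 8 sorted arrays, beside 9.54% of all genes tested.

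In the fatty acid arm 0 of 7 genes were called in the side population and 1 fell in the non-side population. The median log2 fold change was -0.08 in the side population, beside -0.95 for the sterol arm, and -0.54 in the non-side population, beside -0.88. The difference between the arms was described and not tested. FASN, the fatty acid synthase, read 1825.9, 1663.7, 1095.1 and 1137.7 in the side population and 727.2, 725.1, 1294.8 and 607.6 in the non-side population, against 3129.8 and 2312.1 in unsorted cells. It was the 1 of 7 genes of the arm below both unsorted arrays on all 8 sorted arrays, a share near the 9.54% of all genes tested. The log2 fold change was -0.94 ± 0.33 in the side population (limma adjusted p = 0.141) and -1.74 ± 0.33 in the non-side population (limma adjusted p = 0.0117). With the mean of both FASN probe sets, of which the other had a mean intensity of 74.5, the non-side population value was -0.80 and was not called (limma adjusted p = 0.215).

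ACLY, which makes cytosolic acetyl-CoA from citrate, read 11034.5, 10625.6, 6679.2 and 8239.5 in the side population and 5484.1, 4950.5, 6530.1 and 7300.5 in the non-side population, against 9084.3 and 9478.6 in unsorted cells. The side population arrays lay on both sides of the unsorted ones and the non-side population arrays all below. Log2 fold changes were -0.05 ± 0.26 and -0.63 ± 0.26, and neither passed (limma adjusted p = 0.950 and 0.197).

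SCD, the stearoyl-CoA desaturase, read 18018.6, 13017.3, 15813.1 and 21278.1 in the side population and 10963.1, 7443.7, 14229.2 and 15387.5 in the non-side population, against 17315.1 and 14266.3 in unsorted cells. Both sorted groups overlapped the unsorted one, at log2 fold changes of 0.09 ± 0.29 and -0.44 ± 0.29.

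The other probe sets of SCD and ACLY read differently from the brightest. The second SCD probe set read 4212.8, 2429.3, 3794 and 6584.1 in the side population and 2291.9, 1431.3, 5213.4 and 2992 in the non-side population, against 9871.3 and 7285.2 in unsorted cells, so all 8 sorted arrays were lower. The 3 SCD probe sets other than the brightest had log2 fold changes of -1.08, -2.05 and -1.52 in the side population and -1.66, -1.98 and -1.70 in the non-side population. The 2 other ACLY probe sets had -1.09 and -0.86 in the side population and -1.41 and -1.38 in the non-side population. With the mean of all probe sets of each gene, the median of the fatty acid arm moved to -0.49 in the side population and -0.80 in the non-side population. The sterol arm medians ranged from -0.96 to -0.65 and from -0.99 to -0.64 over 14 alternative settings, this one among them.

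**Figure D3:**
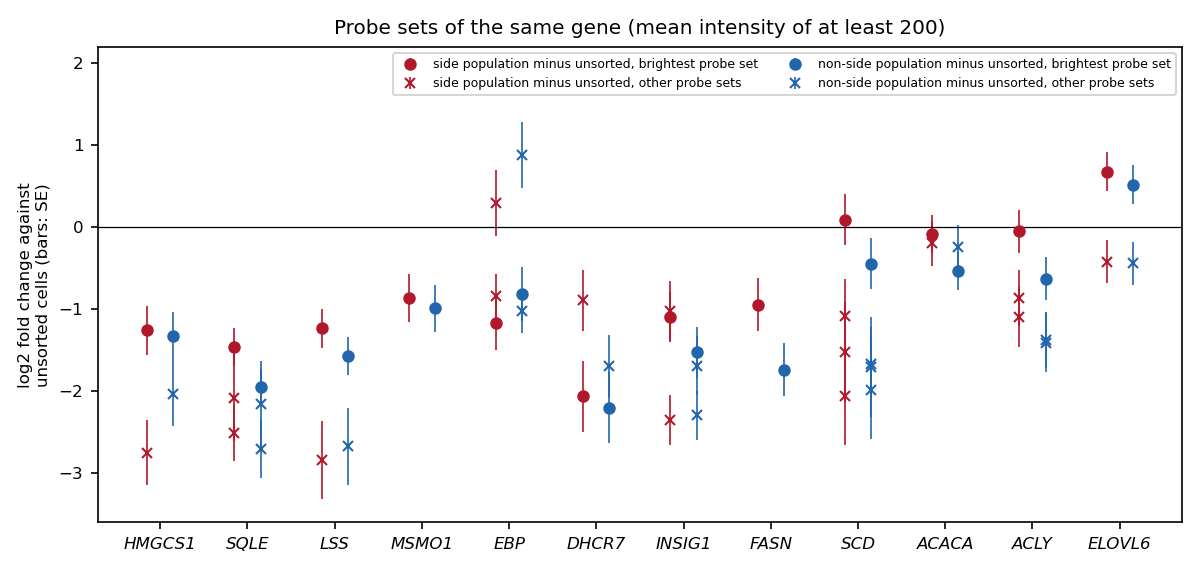
Log2 fold change against unsorted cells (y axis, bars for the standard error) of each probe set with a mean intensity above 200 for 12 genes (x axis), in the side population (red) and the non-side population (blue), with circles for the brightest probe set and crosses for the others. The other SCD and ACLY probe sets lie lower than the brightest, and those of ELOVL6 differ in sign.

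ELOVL6, which elongates palmitate to stearate, was the 1 member higher on all 8 sorted arrays, beside 11.0% of all genes tested. It read 4491.5, 3623.1, 4413.4 and 3448.0 in the side population and 3472.3, 2805.1, 3869.9 and 4220.2 in the non-side population, against 2203.7 and 2787.5 in unsorted cells. Its log2 fold changes of 0.68 ± 0.25 and 0.52 ± 0.25 did not pass (limma adjusted p = 0.161 and 0.264), and a dimmer probe set had -0.42 ± 0.26 and -0.44 ± 0.26. ACACA, the acetyl-CoA carboxylase that commits carbon to fatty acids, had -0.08 ± 0.25 and -0.54 ± 0.25. ACSS2, which makes acetyl-CoA from acetate, had -0.49 ± 0.31 and -0.87 ± 0.31. LPIN1, a phosphatidate phosphatase of glycerolipid synthesis, had -0.28 ± 0.26 and -0.38 ± 0.26.

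Between the side and non-side populations no gene was called. Of 9888 genes 0.0% passed in limma, with 430 at an unadjusted p under 0.05. The sterol arm had a median log2 fold change of -0.03, with 6 of 17 genes positive. On their brightest probe sets, the 7 fatty acid genes all had positive values (median 0.45), as did 5 of 6 regulators (median 0.41). The median over all genes was 0.05. Over all genes tested 42.7% had negative values. Also positive were 11 of 11 genes of sterol uptake, transport and storage (median 0.24). So were 8 of 8 other SREBP processing and sterol sensing genes (median 0.21). Of 16 other genes of fatty acid and glycerolipid synthesis 9 were positive (median 0.11). A positive value means higher in the side population.

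**Figure D4:**
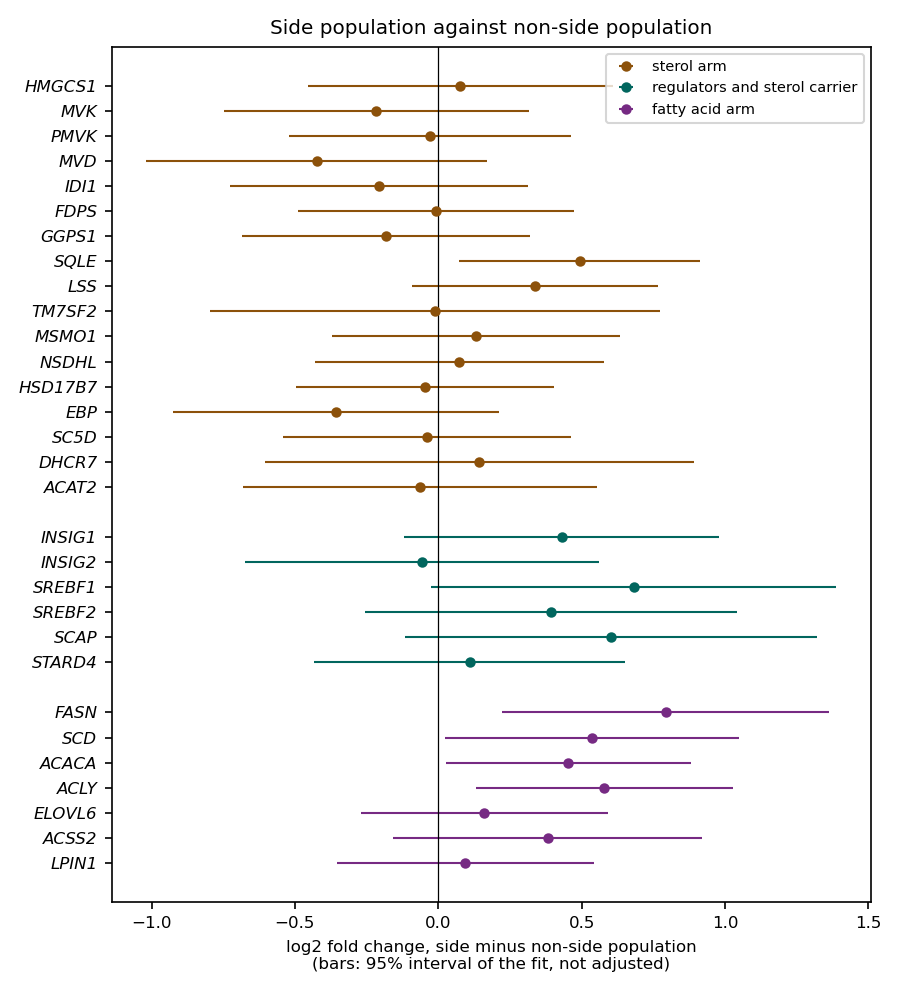
Log2 fold change of the side population over the non-side population (x axis) for the 30 tested genes (y axis), coloured by arm, with the 95% interval of the limma fit, not adjusted for the number of genes. The 7 fatty acid genes lie right of 0, and the intervals of FASN, ACLY, ACACA, SCD and SQLE do not reach it.

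By brightest probe set, FASN had the largest difference among the members, 0.79 ± 0.27 with an interval of 0.22 to 1.36, and limma's adjusted p was 0.997. Only non-side population replicate c reached the range of the side population. ACLY had 0.58 ± 0.21 (interval 0.13 to 1.03), SCD 0.54 ± 0.24 (0.02 to 1.05) and ACACA 0.45 ± 0.20 (0.03 to 0.88). SQLE had 0.49 ± 0.20 (0.07 to 0.91), and its 4 side population arrays were all above its 4 non-side population arrays. It was the 1 of 30 members so ordered, beside 1.01% of all genes tested. SREBF1, at 0.68 ± 0.33 (-0.02 to 1.39), and INSIG1, at 0.43 ± 0.26, had intervals that reached 0. MVD and EBP pointed the other way, at -0.42 ± 0.28 and -0.36 ± 0.27. Dimmer probe sets often differed in this contrast. Those of SCD had 0.58, -0.07 and 0.18, that of ACACA 0.05 and that of FASN 0.11. The dimmer ACLY probe sets had 0.31 and 0.51, and those of SQLE 0.20, 0.08 and 0.27. The second DHCR7 probe set had 0.80, against 0.14 on the brightest, and that of HMGCS1 -0.72, against 0.08. Among the regulators, the other SREBF2 probe sets had -0.26 and 0.315, against 0.39. Those of INSIG1 had 0.67 and -0.05, against 0.43, and that of SREBF1 0.64, against 0.68.

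The sorted arrays of letters a and b were also compared apart from those of c and d, a division known from earlier results of these data. Within a and b the median of the fatty acid arm was 0.76. FASN (1.26 ± 0.22, limma adjusted p = 0.0320) and ACLY (1.05 ± 0.15, limma adjusted p = 0.0320) were called higher in the side population. Of all 9888 genes, 736 were called higher and 246 lower, together 9.93%. SCAP was called higher as well (1.12 ± 0.24, limma adjusted p = 0.0367) and EBP lower (-1.01 ± 0.18, limma adjusted p = 0.0320). Within c and d the median was 0.10 and 0 members were called, beside 0.0% of all genes, of which 559 had an unadjusted p under 0.05. The difference between the 2 sets of letters, as an interaction term in limma, was called for 0 of 9888 genes, with 2157 at an unadjusted p under 0.05. It was 0.95 ± 0.33 for ACLY (adjusted p = 0.185) and 0.93 ± 0.45 for FASN (adjusted p = 0.241). Side population replicates a and b are the arrays whose source label names no line, and the part of this in the values was not tested.

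The arms can be set side by side on each array. Relative to the unsorted mean, the fatty acid arm was 0.08, -0.16, -0.29 and -0.25 on side population replicates a to d and -0.65, -0.90, -0.26 and -0.52 on non-side population replicates a to d. The sterol arm minus the fatty acid arm was therefore -0.92, -0.81, -0.64 and -0.49 in the side population and 0.07, 0.07, -0.93 and -0.27 in the non-side population. On every side population array the sterol arm was the lower, by the brightest probe set of each gene. Other probe sets, of which those of SCD and ACLY and some of sterol genes fell further, were not used here. On non-side population replicates a and b both arms were lower than in unsorted cells by about the same amount, and on replicate c the sterol arm was the lower by far. The regulators were -0.26, -0.47, -0.69 and -0.22 in the side population and -0.98, -1.19, -0.29 and -0.63 in the non-side population.

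**Figure D5:**
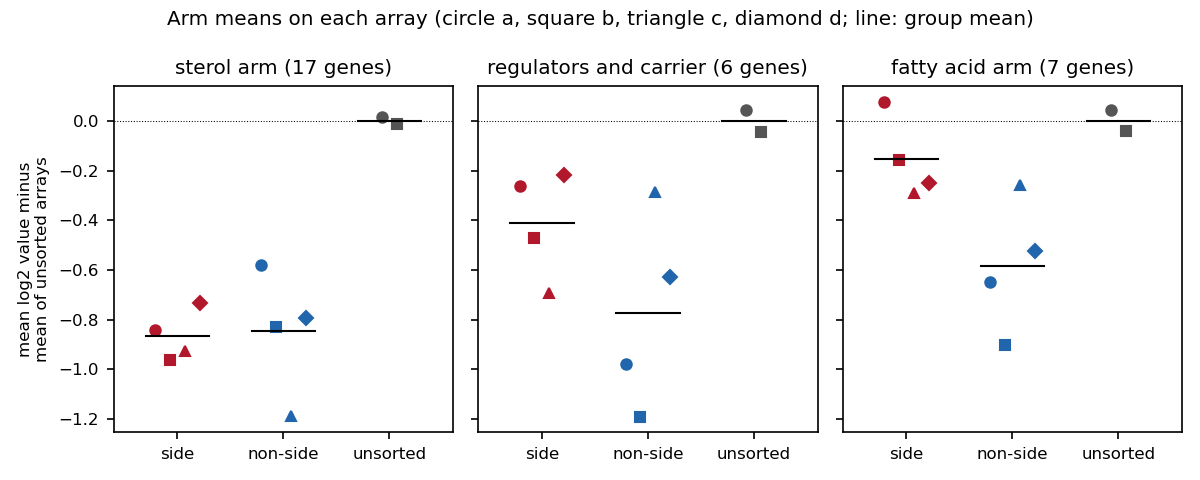
Mean log2 value of the sterol arm, the regulators with the sterol carrier and the fatty acid arm on each array, minus the mean of the unsorted arrays (y axis), for the side population (red), the non-side population (blue) and unsorted cells (grey), with a line at each group mean. Each gene is represented by its brightest probe set. The sterol arm averaged -0.87 ± 0.10 in the side population and -0.85 ± 0.25 in the non-side population, and the fatty acid arm -0.16 ± 0.16 and -0.58 ± 0.27 (SD, n = 4 each).

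Other genes of lipid handling, from lists drawn up with earlier results of these data known, were called in 2 instances. MBTPS2, the site-2 protease that releases SREBP, rose in the side population, at 3678.2, 2755.5, 3225.4 and 2466.0 in the side population and 2569.9, 1947.7, 2592.6 and 3217.1 in the non-side population, against 1220.8 and 1355.4 in unsorted cells. Its log2 fold change was 1.22 ± 0.26 in the side population (limma adjusted p = 0.0265) and 0.98 ± 0.26 in the non-side population (limma adjusted p = 0.0520). Thus 1 of 8 other SREBP processing and sterol sensing genes was called, beside 1.89% of all genes called higher in the side population. CPT1A, which admits fatty acids to mitochondria for oxidation, rose in the non-side population: it read 1212.5, 990.2, 1303.6 and 1814.7 in the side population and 1144.7, 1745.2, 1429.4 and 1489.7 in the non-side population, against 744.5 and 558.8 in unsorted cells. The log2 fold change of CPT1A was 1.15 ± 0.28 in the non-side population (limma adjusted p = 0.0390) and 1.00 ± 0.28 in the side population (limma adjusted p = 0.0753). It was the 1 called of 14 fatty acid oxidation genes, beside 2.46% of all genes called higher in the non-side population. The medians of the 14 were 0.02 in the side population and 0.18 in the non-side population.

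The remaining lists had 0 called genes in every contrast. Of 11 genes of sterol uptake, transport and storage, 8 were negative in the side population and 9 in the non-side population, with medians of -0.24 and -0.62. Of 16 other genes of fatty acid and glycerolipid synthesis, 11 and 13 were negative, with medians of -0.28 and -0.27. The 4 tested LXR receptors and targets had medians of 0.52 and 0.59, and the 9 users of isoprenoids, such as prenyltransferases, of 0.06 and 0.04.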

How the data were processed

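Total RNA from the 10 samples was extracted with a mirVana kit and hybridised as biotin-labelled target, per the labels' protocols. The deposited values are linear intensities for 54675 probe sets per array, from 0.1 to 74993.2, and GCOS 1.4 is named, with no role, per the submitters' processing notes. The trimmed mean, leaving out 2% of values at each end, was 500.065 to 500.095, so no further scaling was applied. Platform annotation gave 41097 probe sets exactly 1 symbol, 1801 several and 11777 none.

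Before taking log2, 6.1 was added to each intensity (the 10th percentile over all arrays), which understates changes of low genes. The brighter genes, from the median of the mean log2 value up (an intensity of 148.5), were tested (9888 of 19775). Groups were compared with limma 3.58.1 in R 4.3.3 (eBayes with a trend), with 3 groups in 1 fit, no covariate and Benjamini-Hochberg adjustment over all genes tested. The fit was tested on simulated data. The number of arrays, above all the 2 unsorted ones, limits the precision. No 2 arrays held identical values.

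The members and lists were chosen with earlier results of these data known. All members were named, and up to 4 called genes of each other list by smallest p. Alternatives were another added constant or none, other filters, quantile normalization, other choices of probe set, no trend in eBayes, a fit of the compared groups alone, a fit of the arrays labelled AGS in the source field, leaving out each array, letters a and b or c and d alone, and the letter as a block. Raising values under the array median to it, and the interaction with the letters, were chosen after seeing the data. Motifs were sought on both strands of RefSeq promoter windows on GRCh38.p14. No detection calls were used here.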

Additional observations from a re-analysis of the deposited data

Results flagged for a closer look

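In each group of 4 arrays, the highest and lowest value of every tested member was compared with its nearest neighbour by Dixon's ratio, and chance flags about 1 group in 20. Of 60 groups 7 stood out, all with 1 low array. On non-side population replicate c, HMGCS1 read 891.3, FDPS 3827.6 and EBP 3261.5, each below the other 3 arrays of its group. That array is also the non-side population array with low 18S signal, and the part of this in the 3 values was not tested. On non-side population replicate b, DHCR7 read 409.6, INSIG2 332.4 and SREBF2 266.0. On side population replicate c, MVK read 377.6.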

How the results depend on the processing

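Precision is limited by the 2 unsorted arrays. Leaving out 1 array at a time gave 0 to 8 called members in the side population against unsorted cells, against 6 with all arrays, and 1 to 9 in the non-side population, against 8. The sterol arm median in the non-side population then ranged from -1.10 (without replicate a) to -0.66 (without replicate c), and the other medians of the sterol and fatty acid arms stayed within the spread between replicates (the median of the regulators was not computed). In the side population, MVD, SQLE and LSS were called in every such fit that kept both unsorted arrays. Only arrays labelled AGS gave 3 calls in the side population, beside 97 of 9888 genes, and a fatty acid median of -0.32. With the mean of all probe sets the fatty acid median was -0.49 in the side population and -0.80 in the non-side population. Letters c and d gave 11 and 13 calls against unsorted cells, beside 12.2% and 15.4% of all genes. Their fatty acid median was -0.32 in the side population, and side minus non-side medians were 0.26 (sterol) and 0.10 (fatty acid). Letters a and b gave 19 calls in the non-side population, beside 26.1% of all genes, and medians of -0.64 (sterol) and -0.80 (fatty acid). For side minus non-side they gave 4 calls, beside 9.93% of all genes, and medians of -0.24 and 0.76. No member called with all arrays and the main settings changed direction under any alternative run. EBP, called lower in the side minus non-side contrast with letters a and b only (-1.01), ranged up to 0.29 in others, and EBP and SCAP, called lower in the non-side population under some settings, up to 0.04 and 0.03.

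Counts over all genes moved more. In the side population against unsorted cells, 242 were called, and 162 without a filter, 144 with the mean of all probe sets, 100 with the filter at the 75th percentile, 451 with only the compared groups, 97 with AGS arrays, 1400 with letters a and b, 1205 with c and d, 746 with the block, and 10 to 403 leaving out 1 array. In the non-side population 362 were called, and 146 with the 75th percentile filter, 202 with only the compared groups, 2577 with letters a and b, 1523 with c and d, 969 with the block, and 17 to 665 leaving out 1 array. For side minus non-side 982 were called with letters a and b and 0 or 1 otherwise. The titles share replicate group names between side and non-side arrays, but the letters were not taken to pair them. Deviations of same-letter side and non-side arrays from their group means correlated at 0.21 (a), 0.5 (b), -0.113 (c) and 0.364 (d). Side population replicate d correlated better with non-side replicate c (0.431). With the letter as a block, the side population sterol median was -0.65, calls against unsorted cells numbered 9 and 12, and side minus non-side calls 0. This block joined the unsorted arrays to sorted arrays of the same letter, which the titles do not do.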
